A study of Homo sapiens with 9 samples.

Results

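Messenger RNA of 9 genes of NF-kappaB feedback and inflammatory signalling was followed across 9 RNA-seq libraries of HaCaT, a human keratinocyte line that divides without limit in culture. The genes were chosen by name, as rows of the count and FPKM tables, and are 9 of the 58336 genes listed there. They are the feedback inhibitors NFKBIA and TNFAIP3, the secreted cytokines CSF2, LIF, IL6, TNF and IL24, the prostaglandin-producing enzyme PTGS2 and the adhesion molecule ICAM1.

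The treated cells received low-dose photodynamic therapy, in which 5-aminolevulinic acid (ALA, 0.5 mmol per litre) is taken up and turned into a photosensitiser, which is then excited by light of wavelength 635 ± 5 nm with a fluence of 3 J/cm2. RNA of treated cells was taken after 12 h in 3 samples and after 48 h in 3 others, and the 3 control samples were untreated, so they bear on ALA and light together. The tables name the treated libraries B1 to B3 and A1 to A3, and the sources used here do not tie either letter to a time. They are therefore called B and A, no time course is read from them, and the libraries Nc1 to Nc3 are read as the untreated control, a reading that no label spells out. All groups are the same line in the same medium, and the labels do not say whether the 3 samples of a group were separate cultures, so the p-values measure the spread between these samples, which may be technical.

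NF-kappaB is a family of transcription factors held in the cytoplasm by inhibitor proteins of the IkappaB family. Cytokine receptors, pattern receptors and cell stress activate kinases that mark the inhibitor for destruction, and the freed factor then induces cytokines, adhesion molecules and prostaglandin enzymes together with its own inhibitors. NFKBIA encodes the IkappaB alpha protein and TNFAIP3 a ubiquitin-editing enzyme that shuts off signalling upstream, so both are induced by the pathway and restrain it. In keratinocytes these genes take part in the response of the epidermis to light, injury and microbes.

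The libraries held between 15337296 and 18028419 counts in genes. All 10 keratinocyte markers were detected, although KRT14, a keratin of the basal epidermis, had only 2 to 20 counts per library where its partner KRT5 had 5016 to 7991. The keratinocyte markers summed to between 52924 and 57958 counts in B, 78066 and 87896 in A, and 58683 and 69383 in Nc. HBB, a haemoglobin gene of red cells, had 7550 counts in B3, 519 in A1, 1115 in A2, 6700 in Nc1 and 6665 in Nc2, against 2 to 7 counts in each of the other 4 libraries. The 8 red-cell markers summed to between 4 and 8413 in B, 7 and 1245 in A, and 3 and 7479 in Nc, and the 10 leukocyte markers to between 98 and 511 in B, 63 and 135 in A, and 59 and 405 in Nc. PTPRC, the defining leukocyte marker, had 18 to 135 counts in B, 36 to 38 in A and 12 to 103 in Nc. The 8 fibroblast markers summed to between 38 and 65 in B, 27 and 195 in A, and 48 and 70 in Nc. Of these, COL3A1, LUM and DCN had 27, 9 and 11 counts in A1 and 31, 14 and 11 in A2, and were at 0 in every other library. The 6 melanocyte markers summed to between 124 and 159 in B, 109 and 160 in A, and 144 and 208 in Nc, with TYR at 0 throughout. Results are given with all 9 libraries. Without those 5, which leaves 1 library each of A and Nc and takes the spread from the pair B1 and B2, 1 of 11 calls of members and listed genes in A against Nc held (CSF2), none of 10 in B against Nc, and 6 of 20 between B and A (CSF2, TNFAIP2, IL20RB, PTGS1, ZFP36 and IKBKG). All these differences kept their sign there, with adjusted p of 0.644 to 1, 0.662 to 0.979 and 0.079 to 0.468 for the calls that ended in those 3 comparisons. The 6 calls in the average of B and A against Nc all ended there, each at an adjusted p of 1.

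Promoter sequence is shown for the 2 members called between the treated groups, CSF2 and NFKBIA, and for TNFAIP3, the other feedback inhibitor. Each entry runs from 250 bases before to 50 after the start of the RefSeq gene on GRCh38.p14, 5′ to 3′ in the direction of the gene. Capitals mark matches on either strand to GGGRNNYYCC, a consensus for the kappaB sites that NF-kappaB dimers recognise. In it R is A or G, Y is C or T and N any base. Sites that depart from this form were not searched. The CSF2 entry is chr5:132073539-132073838 on the plus strand, that of NFKBIA chr14:35404700-35404999 on the minus strand, and that of TNFAIP3 chr6:137867009-137867308 on the plus strand.
CSF2: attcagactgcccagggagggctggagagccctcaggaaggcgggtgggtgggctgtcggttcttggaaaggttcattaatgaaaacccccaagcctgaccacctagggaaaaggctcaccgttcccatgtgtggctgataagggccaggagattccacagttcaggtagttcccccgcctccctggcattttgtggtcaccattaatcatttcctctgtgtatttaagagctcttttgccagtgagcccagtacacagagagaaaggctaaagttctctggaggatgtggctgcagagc
NFKBIA: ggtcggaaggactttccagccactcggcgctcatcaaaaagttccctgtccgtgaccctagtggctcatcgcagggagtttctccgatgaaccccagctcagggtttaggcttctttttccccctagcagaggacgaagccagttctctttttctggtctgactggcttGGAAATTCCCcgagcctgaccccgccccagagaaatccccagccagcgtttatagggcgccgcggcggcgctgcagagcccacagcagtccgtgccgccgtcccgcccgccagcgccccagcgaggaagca
TNFAIP3: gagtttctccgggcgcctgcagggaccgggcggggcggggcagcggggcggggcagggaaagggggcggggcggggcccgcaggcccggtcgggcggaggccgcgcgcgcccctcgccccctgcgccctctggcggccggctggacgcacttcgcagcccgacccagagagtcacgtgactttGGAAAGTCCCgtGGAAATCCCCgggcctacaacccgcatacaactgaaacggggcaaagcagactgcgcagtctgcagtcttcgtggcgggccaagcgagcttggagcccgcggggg

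A RefSeq promoter was matched for 8 of the 9 members, LIF being the other. The consensus had 2 matches in the TNFAIP3 window, at bases -67 to -58 and -55 to -46 from the start, 1 in NFKBIA at -81 to -72 and 1 in IL6 at -73 to -64, and none in the windows of CSF2, ICAM1, PTGS2, TNF and IL24. A match was held by 11.3% of 35116 promoters of the same length. The letters TGANTCA, a form of the AP-1 element, were in none of the 8 windows and in 7.71% of all promoters, and TATAAA was in those of ICAM1, PTGS2 and TNF and in 7.33% of all. A match is a description of letters in this window and a missing match says only that these letters are not in it.

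CSF2 encodes granulocyte-macrophage colony-stimulating factor, a cytokine that keratinocytes release to recruit and sustain myeloid cells. The gene lies on chromosome 5, from 132073790 to 132076170 on the plus strand (GRCh38, as in the deposited table). Its level was 39.7, 61.3 and 49.6 FPKM (fragments scaled by gene length and sequencing depth) in A1 to A3, against 19.0, 20.1 and 20.0 FPKM in Nc1 to Nc3. The counts behind these values were 536, 713 and 560 in A and 266, 246 and 264 in Nc. The lowest library of A was thus above the highest of Nc. The mean was 50.2 ± 10.8 FPKM in A and 19.7 ± 0.626 FPKM in Nc (SD, n = 3 each), and CSF2 was 2.57-fold higher in A, a log2 fold change of 1.36 ± 0.17 (SE, 95% interval 1.01 to 1.71, edgeR quasi-likelihood test with Benjamini-Hochberg adjustment over 13845 genes, adjusted p = 0.000318). In that comparison 12 genes had a smaller adjusted p. The call held in each of 20 alternative settings. Without the 5 libraries with HBB the log2 fold change was 1.32, where A and Nc have 1 library each. In bulk RNA, fewer cells that express a gene and less of its RNA per cell cannot be told apart.

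In B the same gene stood at 15.2, 12.7 and 18.1 FPKM, with 194, 181 and 271 counts. All 3 libraries of B were below those of Nc, but the difference did not pass the test (log2 fold change -0.35 ± 0.17, 95% interval -0.71 to 0.01, adjusted p = 0.183). Between the treated groups CSF2 averaged 15.3 ± 2.70 FPKM in B and 50.2 ± 10.8 FPKM in A, and it was lower in B by a log2 fold change of -1.71 ± 0.17 (95% interval -2.07 to -1.36, edgeR adjusted p = 7.5e-06). No library of B reached a library of A, and this call also held in each of 19 settings. Without the 5 libraries with HBB the log2 fold change was -1.82, where A3 is the only library of A. Averaged over both treated groups, CSF2 was at a log2 fold change of 0.51 ± 0.15 from Nc and just missed the threshold (adjusted p = 0.0572), a call that 4 of 18 alternatives made.

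LIF encodes leukaemia inhibitory factor, a cytokine of the IL6 family that signals through LIFR and the shared chain IL6ST to STAT3. It lies on chromosome 22, from 30240447 to 30246851 on the minus strand. Its level was 14.6, 20.15 and 17.3 FPKM in A1 to A3, against 11.5, 12.6 and 11.9 FPKM in Nc1 to Nc3. The libraries of A, with 997, 1181 and 985 counts, were all above those of Nc, with 810, 777 and 790. The mean was 17.4 ± 2.75 FPKM in A and 12.0 ± 0.582 FPKM in Nc (SD, n = 3 each), and LIF rose 1.46-fold in A, a log2 fold change of 0.55 ± 0.13 (95% interval 0.28 to 0.82, edgeR adjusted p = 0.0294). This call was held by 12 of 20 alternatives. Its adjusted p was 0.0529 with the replicate number as a block over all 9 libraries. With that block over A and Nc alone, a fit chosen from these same counts, it was 0.000104. The call ended without Nc1 (adjusted p = 0.0803), Nc3 (0.122), A2 (0.204) or A3 (0.118), and without the 5 libraries with HBB, where the log2 fold change was 0.56.

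In B the level of LIF was 14.7, 14.0 and 15.2 FPKM, from 945, 1003 and 1151 counts. Again all 3 were above the 3 of Nc, by a log2 fold change of 0.30 ± 0.13 (95% interval 0.03 to 0.57, edgeR adjusted p = 0.129), which did not pass the test in any of 19 alternatives. The ranges of B and A overlapped, at a mean of 14.6 ± 0.642 FPKM in B and 17.4 ± 2.75 FPKM in A, and LIF differed between them by a log2 value of -0.25 ± 0.13 (95% interval -0.52 to 0.02, adjusted p = 0.182). Over both treated groups together LIF was 1.34-fold higher than in Nc (log2 fold change 0.42 ± 0.11, adjusted p = 0.0414), with all 6 treated libraries above all 3 of Nc. That call ended without any one of Nc1, Nc3, A2, A3, B1 or B3, with adjusted p between 0.0656 and 0.183, with the replicate block (0.0563) and without the 5 libraries with HBB (1), and was held by 7 of 18 alternatives. An antisense gene that overlaps LIF, AC004264.1, had 28 to 61 counts per library, and since the strand setting is not given in the sources used here, reads of the pair cannot be told apart in their overlap.

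NFKBIA was the most abundant member in B and Nc and the second in A. The gene lies on chromosome 14, from 35401511 to 35404749 on the minus strand. Its level was 67.9, 60.9 and 70.45 FPKM in B1 to B3, against 44.1, 49.7 and 43.6 FPKM in A1 to A3. The control was at 57.7, 63.75 and 57.9 FPKM in Nc1 to Nc3. In FPKM the ranges of Nc and B overlapped, but scaled by library totals alone all libraries of B were above those of Nc. The counts were 2610, 2618 and 3182 in B, 1795, 1743 and 1485 in A, and 2438, 2348 and 2305 in Nc. Each library of A was below each of Nc and each of B. NFKBIA averaged 66.4 ± 4.93 FPKM in B and 45.8 ± 3.41 FPKM in A (SD, n = 3 each) and was 1.45-fold higher in B, a log2 fold change of 0.53 ± 0.12 (95% interval 0.28 to 0.78, edgeR adjusted p = 0.00623). The call held in 18 of 19 alternatives, with adjusted p up to 0.0471 when 1 library was left out. It ended without the 5 libraries with HBB, at a log2 fold change of 0.57 (adjusted p = 0.446).

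Against the control, NFKBIA did not pass the test in either treated group. It was at a log2 fold change of 0.16 ± 0.12 in B (95% interval -0.09 to 0.41, adjusted p = 0.387). In A it was at -0.37 ± 0.12, at a mean of 45.8 ± 3.41 FPKM in A and 59.8 ± 3.43 FPKM in Nc, with a 95% interval of -0.62 to -0.12 that lies below 0 before adjustment (unadjusted p = 0.00635, adjusted p = 0.0996). Of 20 alternatives 2 called this difference, DESeq2 (adjusted p = 0.0222) and the fit of A and Nc alone with a replicate block (log2 fold change -0.39, adjusted p = 0.000332). The block was chosen from these same counts, so its adjusted p can be too small. NFKBIA and CSF2 were thus the 2 members called between B and A, in opposite directions.

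TNFAIP3, the other feedback inhibitor, lies on chromosome 6 from 137867188 to 137883312 on the plus strand and overlapped between all groups. Its level was 12.6, 15.5 and 14.5 FPKM in B1 to B3, against 14.5, 15.6 and 12.6 FPKM in A1 to A3. In Nc1 to Nc3 it was 14.5, 12.1 and 12.2 FPKM. No comparison passed the test. The log2 difference was -0.01 ± 0.13 between B and A (95% interval -0.28 to 0.26, adjusted p = 0.974), 0.15 ± 0.13 between B and Nc (adjusted p = 0.473) and 0.16 ± 0.13 between A and Nc (adjusted p = 0.485). An overlapping antisense gene, AL357060.1, had 50 to 89 counts per library.

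PTGS2 encodes the inducible cyclooxygenase, which makes the precursor of all prostaglandins. Its level was 3.59, 4.07 and 2.88 FPKM in B1 to B3, against 5.18, 4.68 and 4.18 FPKM in A1 to A3. In Nc1 to Nc3 it was 3.83, 3.25 and 3.145 FPKM. In FPKM all libraries of A were above those of Nc and of B, but scaled by library totals alone the ranges overlapped in both cases. PTGS2 averaged 4.68 ± 0.500 FPKM in A and 3.41 ± 0.367 FPKM in Nc (SD, n = 3 each), a log2 fold change of 0.47 ± 0.15 (95% interval 0.15 to 0.80, edgeR adjusted p = 0.103). It passed in 1 of 20 alternatives, the fit of A and Nc alone with a replicate block (0.45, adjusted p = 0.00145), a block chosen from these same counts. Between B and A the log2 fold change was -0.42 ± 0.15 (95% interval -0.74 to -0.09, adjusted p = 0.0692), which passed when Nc1 was left out (adjusted p = 0.0419). Between B and Nc the log2 difference was 0.05 ± 0.15 (adjusted p = 0.855).

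ICAM1, the adhesion molecule that holds leukocytes to the epidermis through leukocyte integrins, differed little between groups. Its level was 7.42, 7.08 and 8.18 FPKM in B1 to B3, 6.40, 7.60 and 6.39 FPKM in A1 to A3, and 6.79, 7.04 and 7.40 FPKM in Nc1 to Nc3. The ranges of the 3 groups overlapped. The log2 difference was 0.11 ± 0.12 between B and Nc (95% interval -0.15 to 0.37), -0.04 ± 0.12 between A and Nc (-0.31 to 0.22) and 0.15 ± 0.12 between B and A (-0.11 to 0.41), with edgeR adjusted p between 0.426 and 0.861.

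IL6, IL24 and TNF were near the floor of detection. IL6, the cytokine of the acute-phase response, had 8, 15 and 19 counts in B1 to B3, 14, 16 and 5 in A1 to A3, and 18, 12 and 16 in Nc1 to Nc3. IL24, a cytokine of the IL10 family that acts on keratinocytes, had 6, 18 and 12 counts in B, 5, 13 and 1 in A, and 9, 9 and 11 in Nc. TNF, a main activator of NF-kappaB, had 2, 9 and 15 counts in B, 8, 8 and 6 in A, and 9, 8 and 1 in Nc. In all 3 genes the groups overlapped. The interval of the IL6 log2 fold change ran from -1.11 to 0.68 for B against Nc and from -1.18 to 0.66 for A against Nc, and that of IL24 from -0.98 to 1.42 for B against Nc and from -1.79 to 0.85 for A against Nc. These intervals reach far to either side of 0, and a smaller difference was not detectable at this depth. TNF was left out of the tests by the filter on low counts, and its summed counts, scaled by the summed library totals to CPM, were 26 or 0.504 CPM in B (95% exact Poisson interval 0.329 to 0.738), 22 or 0.465 CPM in A (0.291 to 0.704) and 18 or 0.36 CPM in Nc (0.213 to 0.568). Such intervals cover counting error only.

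**Figure D1:**
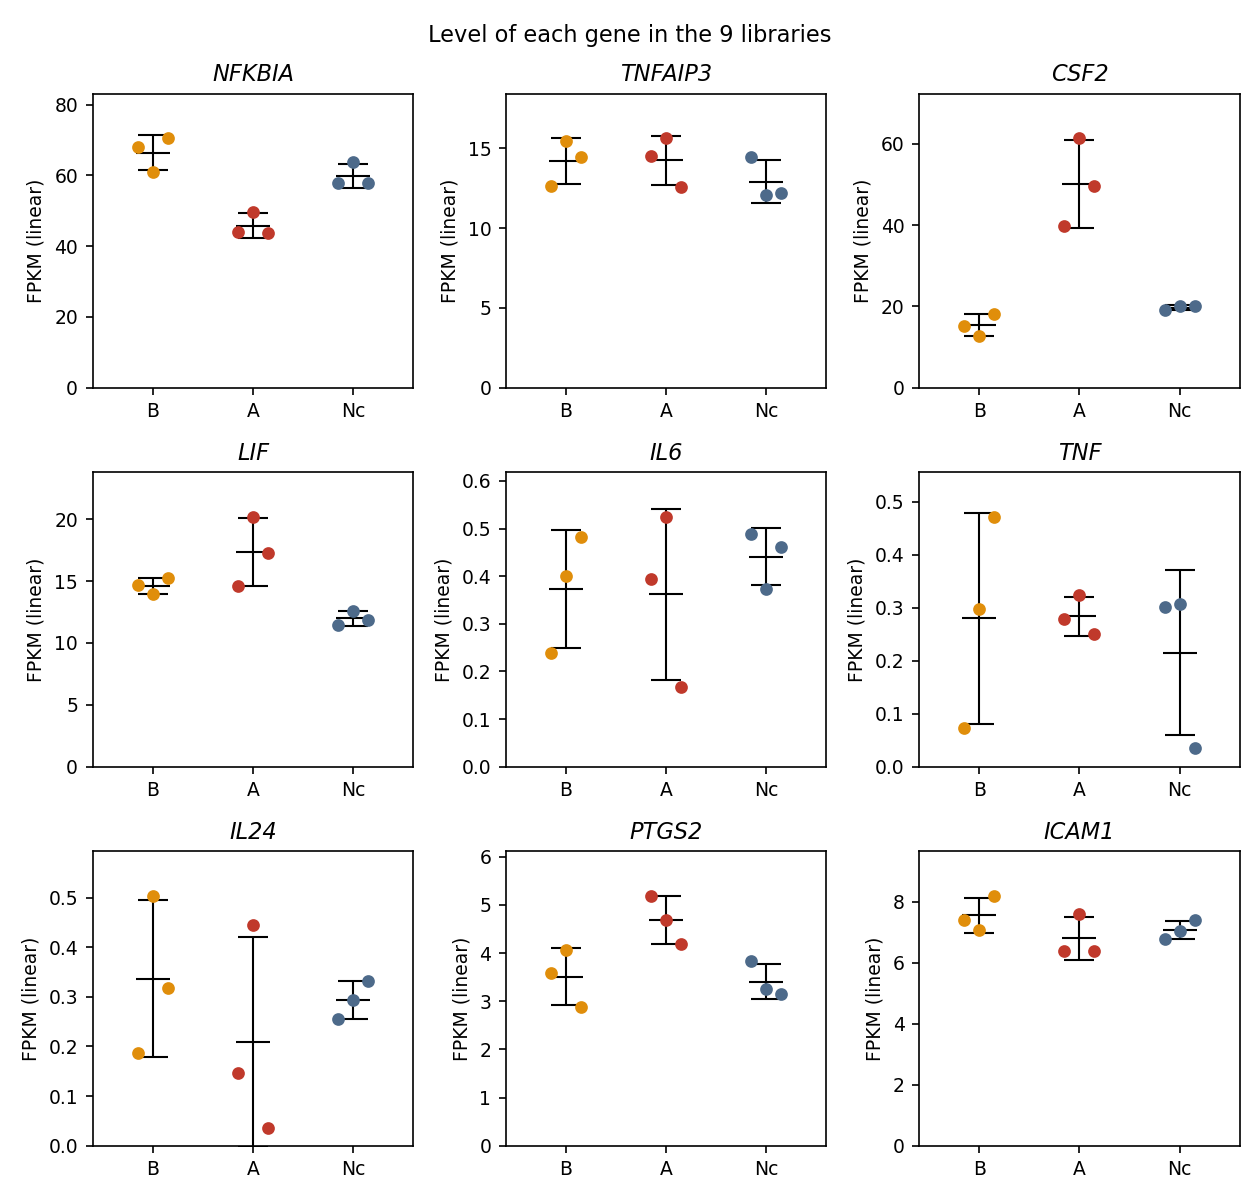
Level of each member in FPKM on linear axes that start at 0, with B, A and Nc from left to right; points are libraries 1 to 3 of a group, and bars give the mean ± SD (n = 3). CSF2 in A lies between 39.7 and 61.3 FPKM, above the other libraries, and NFKBIA in A lies below them.

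Of the 9 members, 8 were tested and 6 had at least 10 counts in every library. In A against Nc, 2 members were called, CSF2 and LIF, both higher, and 2.72% of all 13845 genes tested were called there (1.76% higher and 0.953% lower). With A and Nc fitted alone and the replicate number as a block, 4 members were called, CSF2, LIF and PTGS2 higher and NFKBIA lower, where 34.8% of 13216 genes were called (16.5% higher and 18.3% lower). That block was chosen from these same counts, so its calls are a description and no further support. In B against Nc no member was called by edgeR, with 1 at an unadjusted p under 0.05 (LIF) and 0 by DESeq2 or limma-voom, where 13.4% of all genes were called (6.12% higher and 7.24% lower). Between B and A, NFKBIA was higher and CSF2 lower, where 18% of all genes were called (8.79% higher and 9.25% lower), so 2 of 8 is close to what genes in general showed there. In the average of B and A against Nc only LIF was called, where 4.99% of all genes were called (1.39% higher and 3.6% lower). The median log2 difference of the tested members was 0.127 for B against Nc, 0.056 for A against Nc and 0.02 for B against A, beside -0.002, 0.009 and -0.021 over all genes. The comparisons of B and of A with Nc share the 3 control libraries, so their values are not independent of each other.

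**Figure D2:**
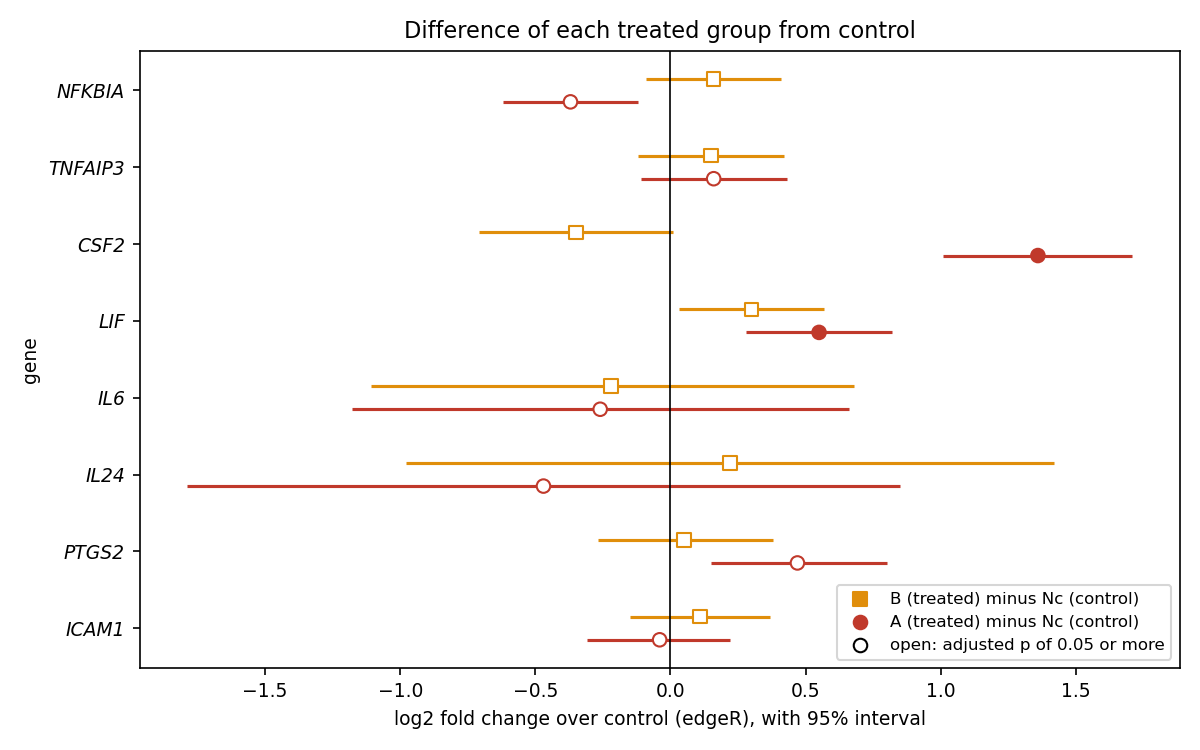
Log2 fold change over Nc of the 8 tested members, B as squares and A as circles, with 95% intervals from edgeR; filled symbols have an adjusted p below 0.05. CSF2 at 1.36 and LIF at 0.55, both in A, are the filled ones, and IL6 and IL24 have the widest intervals.

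The order of the members by FPKM differed between groups. In B the order was NFKBIA, CSF2, LIF, TNFAIP3, ICAM1 and PTGS2, with the ranges of CSF2 and LIF and those of LIF and TNFAIP3 overlapping. In A it was CSF2, NFKBIA, LIF, TNFAIP3, ICAM1 and PTGS2, with overlap between CSF2 and NFKBIA and between LIF and TNFAIP3. In Nc it was NFKBIA, CSF2, TNFAIP3, LIF, ICAM1 and PTGS2, with overlap between TNFAIP3 and LIF alone. IL6, IL24 and TNF were last in each group, at group means of 0.209 to 0.441 FPKM. Among the 12540 genes with at least 10 counts in every library of A, 91.7% had a lower mean FPKM than CSF2, against 79.2% of 13142 in B and 81.8% of 12717 in Nc.

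A ratio of FPKM within a library does not depend on how libraries are scaled. CSF2 over NFKBIA was between 0.208 and 0.257 in B, between 0.9 and 1.23 in A, and between 0.316 and 0.345 in Nc. The 3 groups did not overlap. LIF over NFKBIA was 0.216 to 0.229 in B, 0.332 to 0.405 in A, and 0.198 to 0.205 in Nc. Here too the groups were apart, with A highest, but NFKBIA itself was lowest in A. LIF over TNFAIP3 overlapped between all groups, at 0.903 to 1.16 in B, 1.01 to 1.37 in A and 0.792 to 1.04 in Nc. CSF2 over TNFAIP3 did not overlap, at 0.821 to 1.25 in B, 2.74 to 3.93 in A and 1.31 to 1.67 in Nc. PTGS2 over ICAM1 was 0.352 to 0.575 in B, 0.615 to 0.809 in A and 0.425 to 0.564 in Nc, with A apart. PTGS2 over NFKBIA was 0.0409 to 0.0667 in B, 0.0941 to 0.117 in A, and 0.051 to 0.0663 in Nc, with B and Nc overlapping and A apart from them. CSF2 over LIF was 0.91 to 1.19 in B, 2.71 to 3.04 in A and 1.6 to 1.68 in Nc, again without overlap. NFKBIA over TNFAIP3 was 3.94 to 5.37 in B, 3.04 to 3.46 in A, and 3.98 to 5.28 in Nc, with B and Nc overlapping. These ratios were chosen after the levels were seen and carry no test.

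**Figure D3:**
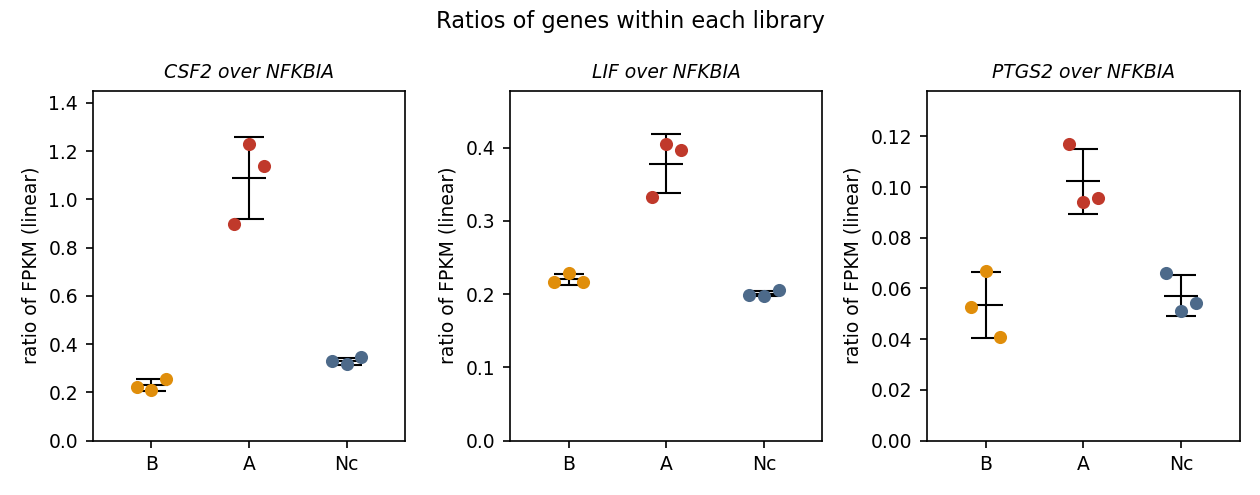
Ratio of FPKM of CSF2, LIF and PTGS2 to NFKBIA within each library, on linear axes that start at 0, for B, A and Nc from left to right; points are libraries and bars the mean ± SD (n = 3). The CSF2 ratio averages 0.23 in B, 1.09 in A and 0.33 in Nc. The shared divisor, NFKBIA, was itself lowest in A.

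Other measures also differed between groups, some of them with overlapping ranges. The share of counts from mitochondrial genes was 8.0% to 9.72% in B, 6.8% to 7.51% in A and 7.92% to 8.65% in Nc. The 6 endothelial markers summed to 197 to 246 counts in B, 27 to 52 in A and 48 to 73 in Nc, mostly from CDH5, which had 185 to 230 counts in B, 24 to 41 in A and 31 to 52 in Nc. TEK was at 0 in 2 libraries of B, 3 of A and 2 of Nc, and PECAM1, the defining surface marker, had 6 to 22 counts in B, 2 to 5 in A and 0 to 19 in Nc. The part of these measures, of the keratinocyte marker sum and of the fibroblast markers in A1 and A2, in the differences of CSF2, LIF and NFKBIA was not tested.

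The genes around the members were read from 10 lists with 109 genes, chosen with earlier results of these data known. The rule for named genes gave RELA, BIRC2, BIRC3, IRAK1, TLR3, IL6ST, PTGES, CLCF1, PIM1, KHSRP and F11R, and each other gene named from these lists was chosen after its values were seen. Over all genes the share called was 13.4% in B against Nc, 2.72% in A against Nc and 18% between B and A, against which the counts below are to be read. Of the 5 NF-kappaB subunits, all tested, none was called in B or in A against Nc, with 1 and 2 at an unadjusted p under 0.05 and 0 by DESeq2 or limma-voom. RELA, the main activating subunit, stood at 16.7 ± 1.58 FPKM in B, 20.7 ± 2.17 FPKM in A and 17.4 ± 0.873 FPKM in Nc. Between B and A, 1 of the 5, RELB, was called, lower in B.

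Among the 15 other inhibitors and feedback genes of the pathway, 1 rose (TNFAIP2) and 1 fell (BIRC2) in B against Nc, and 2 fell in A against Nc (TNFAIP2 and BIRC3). BIRC3, an NF-kappaB target that encodes a ubiquitin ligase of the receptor complex, fell in A, at 1.75 ± 0.385 FPKM in A and 3.89 ± 0.577 FPKM in Nc (log2 fold change -1.14 ± 0.18, edgeR adjusted p = 0.0031). That call held with any 1 library left out and ended without the 5 libraries with HBB (-0.88, adjusted p = 0.644). TNFAIP2, a gene induced by TNF, averaged 119.3 ± 13.2 FPKM in B and 47.5 ± 3.64 FPKM in A, against 86.0 ± 6.21 FPKM in Nc. It was higher in B than in A by a log2 fold change of 1.32 ± 0.13 (adjusted p = 6.73e-06), called in each of 19 alternatives. Against Nc its log2 fold change was 0.48 ± 0.13 in B (adjusted p = 0.0214), which ended without Nc1, Nc3 or B3 (adjusted p 0.052 to 0.0994), and -0.84 ± 0.13 in A (adjusted p = 0.00222), which held with any 1 library left out and ended without the 5 libraries with HBB (-0.9, adjusted p = 1). Between B and A, 4 of the 15 genes were higher (TNFAIP2, BIRC3, BCL3 and NFKBIZ) and none was called lower, where 8.79% of all genes were higher and 9.25% lower. Their median log2 difference was 0.116, beside -0.021 over all genes.

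BIRC2, a paralogue of BIRC3 with the same role, was lower over B and A together (log2 fold change -0.54 ± 0.13, adjusted p = 0.0321), at 5.58 ± 0.737 FPKM in B, 5.40 ± 0.986 FPKM in A and 8.07 ± 0.962 FPKM in Nc. The call ended without any one of Nc1, Nc3, A2, A3, B1 or B3 (adjusted p 0.064 to 0.152). In the list of 15 kinases and adaptors, 1 rose (MYD88) and 2 fell (TAB2 and TAB3) in B against Nc, none was called in A against Nc (1 at an unadjusted p under 0.05, 1 by DESeq2, 0 by limma-voom), and 3 were lower in B than in A (IKBKG, TRAF2 and IRAK1). IRAK1, a kinase of interleukin and Toll-like receptors and the most abundant of the list, was at 156.5 ± 28.4 FPKM in B and 223.6 ± 34.5 FPKM in A (log2 fold change -0.52 ± 0.16 for B minus A, adjusted p = 0.0377), a call that ended without any one of Nc3, A2, A3, B2 or B3 (adjusted p 0.0556 to 0.192).

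Of 11 receptors upstream of NF-kappaB, 9 were tested. None was called in B against Nc (1 at an unadjusted p under 0.05, 1 by DESeq2, 0 by limma-voom), and 1 rose (LTBR) and 1 fell (TLR3) in A against Nc. TLR3, a sensor of viral RNA, was at 0.752 ± 0.139 FPKM in B, 0.554 ± 0.187 FPKM in A and 1.19 ± 0.165 FPKM in Nc, and fell in A (log2 fold change -1.08 ± 0.23, adjusted p = 0.0201). Without Nc1, Nc2, A2 or A3 that call ended (adjusted p 0.0526 to 0.151).

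For the receptors of the members' products, 10 of 15 were tested, 1 rose (IL20RB) and 1 fell (IL6ST) in B against Nc, and 1 fell in A against Nc (IL20RB). IL6ST, the signalling chain shared by IL6 and LIF, fell in B, at 6.05 ± 0.923 FPKM in B and 9.68 ± 2.16 FPKM in Nc (log2 fold change -0.67 ± 0.17, adjusted p = 0.0171). The call ended without Nc1 or B3 (adjusted p 0.0592 and 0.111). In A, IL6ST averaged 6.49 ± 1.04 FPKM and did not pass (log2 fold change -0.56 ± 0.17, adjusted p = 0.0787). IL20RB, a receptor chain used by IL24, was at 34.0 ± 3.05 FPKM in B, 14.7 ± 1.005 FPKM in A and 23.0 ± 0.978 FPKM in Nc. It rose in B against Nc (log2 fold change 0.58 ± 0.11, adjusted p = 0.00537), fell in A against Nc (-0.63 ± 0.12, adjusted p = 0.00711) and was higher in B than in A (1.21 ± 0.12, adjusted p = 6.58e-06). The difference between B and A was called in each of 19 alternatives, the fall in A ended without A2 or A3 (adjusted p 0.0569 and 0.0608), and without the 5 libraries with HBB neither call against Nc held (adjusted p 0.662 in B and 1 in A).

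Around PTGS2, 9 of 12 prostaglandin enzymes and transporters were tested, of which 1 rose (PTGES) and 1 fell (ABCC4) in B against Nc and 1 rose in A against Nc (PTGS1). PTGES, the inducible synthase that acts after PTGS2, averaged 366.6 ± 52.9 FPKM in B and 192.4 ± 22.6 FPKM in A, against 229.6 ± 33.5 FPKM in Nc. It rose in B against Nc (log2 fold change 0.69 ± 0.15, adjusted p = 0.00852) and was higher in B than in A (0.93 ± 0.15, adjusted p = 0.000698). Without the 5 libraries with HBB neither call held (adjusted p 0.721 and 0.225). PTGS1, the constitutive cyclooxygenase, was at 0.909 ± 0.0535 FPKM in B and 2.30 ± 0.249 FPKM in A, lower in B by a log2 fold change of -1.34 ± 0.16 (adjusted p = 7.08e-05) in each of 19 alternatives. In Nc it was at 1.27 ± 0.134 FPKM, and its rise in A against Nc (log2 fold change 0.87 ± 0.16, adjusted p = 0.00754) ended without Nc3 (adjusted p = 0.0547). Between B and A, 4 of the 9 were higher in B (PTGES, PTGIS, HPGD and PTGR1) and 1 lower (PTGS1), beside the same 8.79% and 9.25% of all genes.

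The related cytokines were mostly at low counts. Of 12 listed, 6 passed the filter on low counts, 1 was called in B against Nc (CSF3, higher) and none in A against Nc (1 at an unadjusted p under 0.05, 0 by DESeq2 or limma-voom). CSF3 had 8 to 18 counts in B and 3 to 4 in Nc. Its call was held by 6 of 17 alternatives and not by DESeq2. CLCF1, a member of the IL6 family and the most abundant of the list by its mean over all libraries, was at 7.02 ± 0.868 FPKM in B, 7.87 ± 0.946 FPKM in A and 6.44 ± 0.474 FPKM in Nc. Of the 8 genes of STAT3 and its feedback, none was called in B against Nc (2 at an unadjusted p under 0.05, 0 by DESeq2 or limma-voom) and 1 in A. That gene, PIM1, a kinase induced by STAT3, rose in A, at 14.2 ± 1.58 FPKM in A and 9.03 ± 0.166 FPKM in Nc (log2 fold change 0.67 ± 0.13, adjusted p = 0.0109). Without Nc3, A2 or A3 the call ended (adjusted p 0.0545 to 0.0867).

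Messenger RNAs of CSF2, IL6, TNF and PTGS2 carry AU-rich elements, to which proteins bind that shorten or lengthen the life of the message. Of 8 such regulators, none was called in B against Nc (1 at an unadjusted p under 0.05, 0 by DESeq2 or limma-voom), 2 rose in A against Nc (ZFP36 and ZFP36L1), and 1 was higher (TIA1) and 2 lower (ZFP36 and ZFP36L1) in B than in A. KHSRP, the most abundant, was at 67.25 ± 10.7 FPKM in B, 85.9 ± 5.57 FPKM in A and 76.7 ± 2.98 FPKM in Nc. ZFP36, a protein that promotes decay of such messages, was at 7.54 ± 0.837 FPKM in B and 12.7 ± 1.16 FPKM in A, against 8.29 ± 0.705 FPKM in Nc. Its log2 fold change was -0.76 ± 0.14 between B and A (adjusted p = 0.00159, called in each of 19 alternatives) and 0.63 ± 0.14 between A and Nc (adjusted p = 0.0202), a call that ended without any one of Nc1, Nc2, Nc3, A2 or A3 (adjusted p 0.0543 to 0.133). Of 8 adhesion molecules related to ICAM1 only 3 were tested, and none was called in B against Nc (1 at an unadjusted p under 0.05) or in A against Nc (0), and 0 by DESeq2 or limma-voom in either. F11R, a junctional adhesion molecule and the most abundant of these, was at 37.1 ± 3.36 FPKM in B, 29.7 ± 4.04 FPKM in A and 30.6 ± 0.573 FPKM in Nc.

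For several of the genes named above with a count alone, the call ended when 1 of several libraries was left out. The calls of MYD88 and ABCC4 in B ended without Nc3 or B3 (adjusted p 0.0529 to 0.0933), those of TAB3 and BIRC2 in B without Nc1, Nc3, B1 or B3 (0.0761 to 0.161), that of TAB2 in B without Nc1, Nc3, B2 or B3 (0.0742 to 0.168), and that of CSF3 in B without any one of Nc1, Nc2, Nc3, A3, B2 or B3 (0.053 to 0.131). In A the call of LTBR ended without any one of Nc1, Nc2, Nc3, A2 or A3 (0.0551 to 0.176) and that of ZFP36L1 without Nc2, Nc3, A2 or A3 (0.0566 to 0.101). When Nc1 and Nc2 were left out together, which leaves 1 control library, the calls of CSF2 and TNFAIP2 in A against Nc held (adjusted p 0.0196 and 0.00733), and no other call against Nc of a member or a listed gene did. With A and Nc fitted alone and the replicate block, which was chosen from these same counts, 85 of the 109 listed genes were tested. Of these, 17 were higher and 20 lower in A, beside 16.5% and 18.3% of all genes. They included RELA, RELB and NFKB2 (higher) and NFKB1 and REL (lower) of the 5 subunits. Of the 15 inhibitors and feedback genes, 2 were higher (NFKBIE and TNIP2) and 4 lower (TNFAIP2, TNFAIP8, BIRC2 and BIRC3). Another 4 higher and 3 lower were among the 15 kinases and adaptors, with 3 higher and 1 lower among the 8 regulators of AU-rich messages. That fit also called 1 higher and 2 lower of 9 tested upstream receptors, 1 higher and 3 lower of 10 receptors of the members' products, 1 higher and 3 lower of 9 prostaglandin genes and 2 each way of the 8 STAT3 genes, and none of the 3 cytokines and 3 adhesion molecules it tested.

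**Figure D4:**
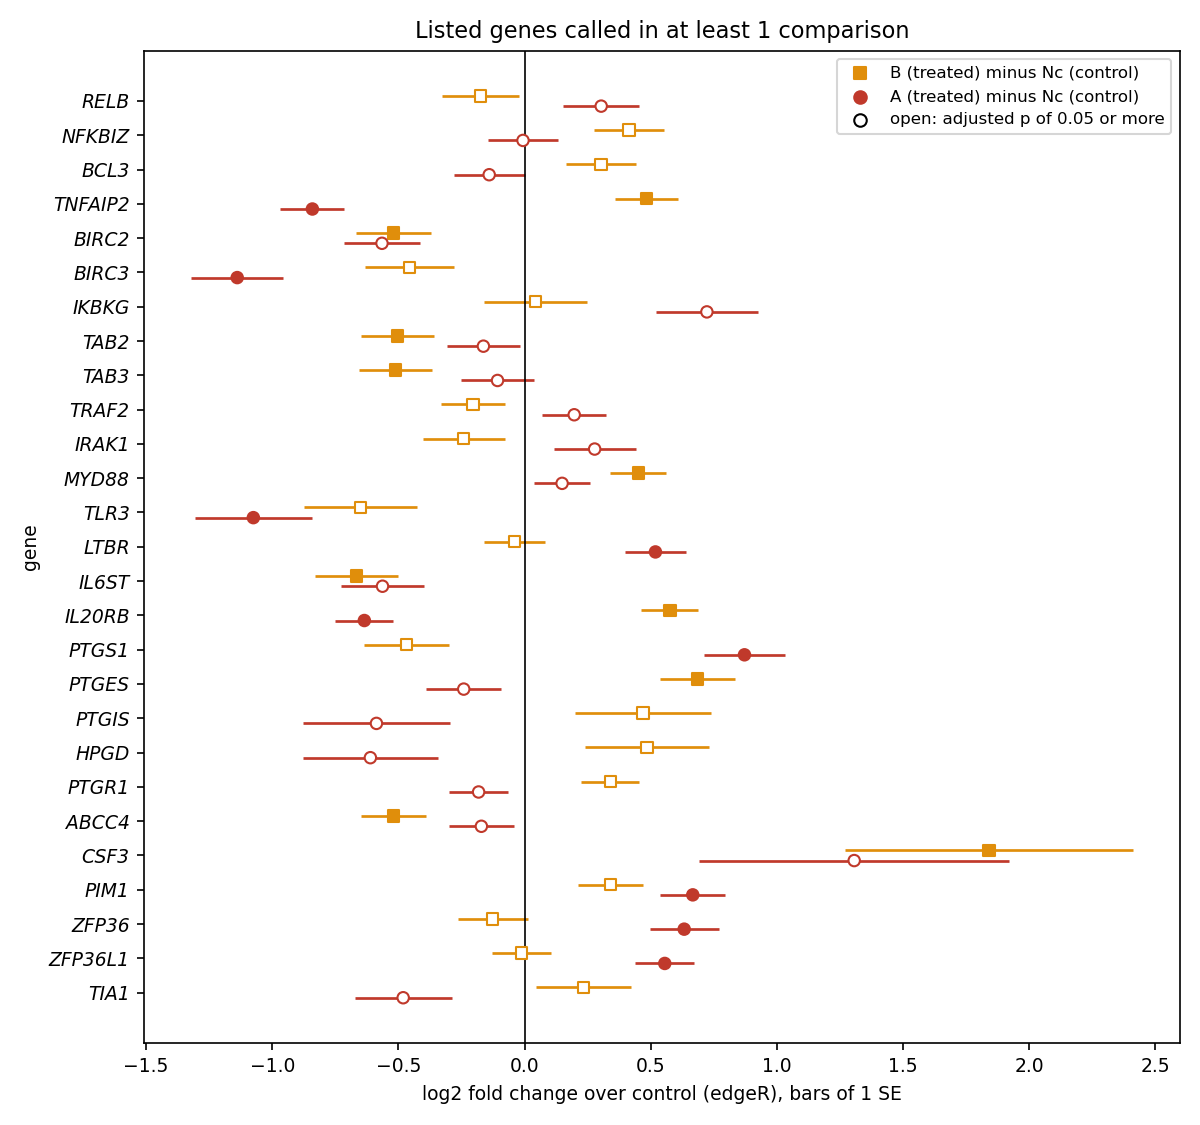
Log2 fold change over Nc of the listed genes called in at least 1 comparison, B as squares and A as circles, with bars of 1 SE from edgeR; filled symbols have an adjusted p below 0.05. IL20RB and TNFAIP2 are filled on opposite sides of 0, at 0.58 and 0.48 in B and at -0.63 and -0.84 in A.

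Across the 9 libraries, the genes whose pattern was most like each member were taken from the 12275 others with at least 10 counts everywhere, by Pearson's r of log2(CPM + 1), as a description that shares libraries and scaling. FADD (r = 0.993), PPP1R15A (0.99) and SHC1 (0.987) were most like CSF2. ZNF488 (0.988), NRG4 (0.983) and ASB9 (0.981) were most like NFKBIA, and PDGFB (0.971), FOSB (0.958) and POFUT2 (0.954) most like LIF. For TNFAIP3 they were CD59 (0.976), IRGQ (0.972) and METTL3 (0.97), for ICAM1 ATP6V0A1 (0.968), PYROXD2 (0.964) and SEPHS1 (0.956), and for PTGS2 NEDD4L (0.929), ARHGEF28 (0.927) and AFAP1L1 (0.925).

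**Figure D5:**
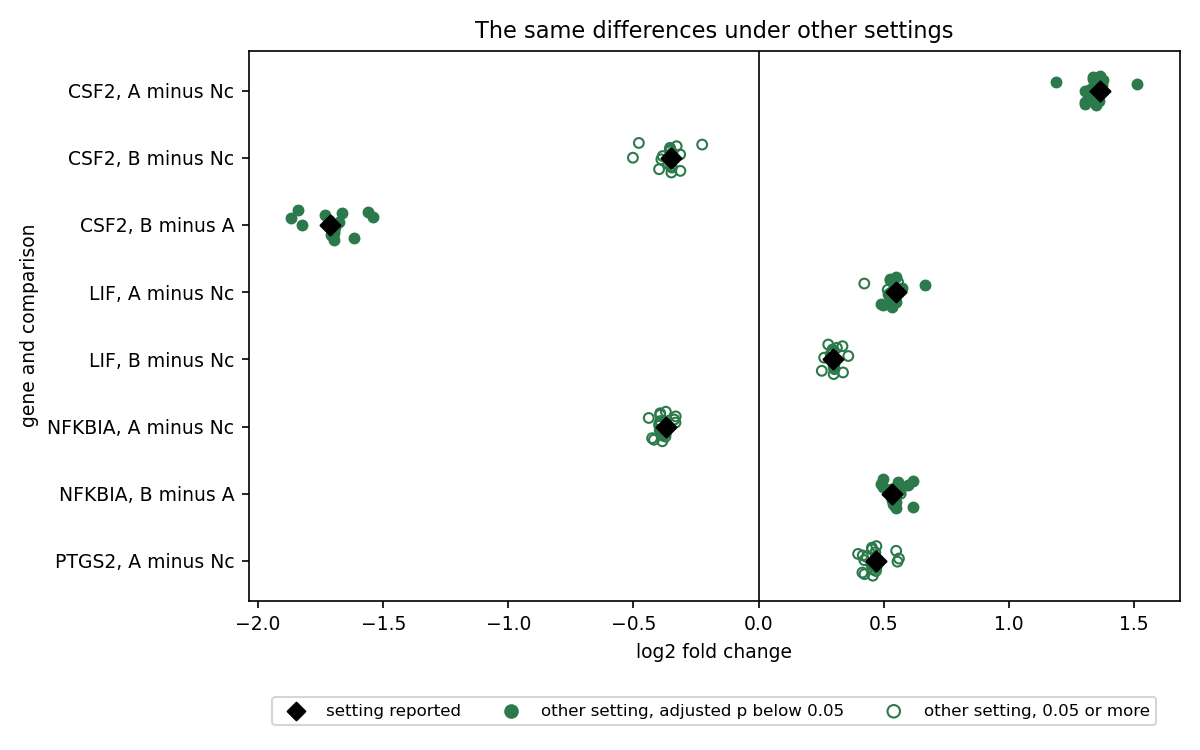
Log2 fold change of 8 member comparisons as reported (diamonds) and under each alternative setting (circles, filled where the adjusted p is below 0.05), the alternatives being spread vertically for legibility. The circles for CSF2 lie between 1.19 and 1.51 for A minus Nc and between -1.87 and -1.54 for B minus A, all filled, whereas those for LIF are partly open.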

How the data were processed

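Per the labels' protocols, sequencing gave read pairs of 150 bases. FastQC, HISAT2, StringTie and GRCh38 come from the submitters' processing notes; their versions, the strand setting and the annotation were not given in the sources used here. The deposited counts are whole numbers per gene, and the FPKM made by the authors equal count over gene length over a library constant that was 0.936 to 1.07 times the total. Of 58336 identifiers, 58216 were found in GENCODE 29.

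Members and lists were chosen with earlier results of these data known. All 9 libraries entered 1 fit of edgeR 4.0.16 (R 4.3.3; TMM, filterByExpr, quasi-likelihood, Benjamini-Hochberg), and a gene was called at an adjusted p under 0.05. Alternatives were other scalings, filters, tools (DESeq2 1.42.0, limma 3.58.1) and libraries left out; leaving out the 5 libraries with over 500 HBB counts, and fitting A and Nc alone with the replicate number as a block, were chosen after seeing the data. Deviations from group means correlated at 0.225 to 0.47 between same-numbered libraries of A and Nc, and were negative for B with either (-0.331 to -0.195). Numbers were therefore read as pairs for A and Nc alone, from the data and not from a label. Because the same deviations chose the block and set its error, adjusted p of that fit can be too small and add no support. Under other numbers B correlated with both groups. The values were 0.312 and 0.311 for B2 with Nc1 and A1, and 0.226 and 0.246 for B3 with Nc2 and A2. For B1 with Nc3 and A3 they were 0.252 and 0.28. No fit paired B in that way, so such a pairing was not tested. Named were all members and, per list, up to 4 genes called over both treated groups, largest change first, otherwise the most abundant; then the 3 genes most like each member with at least 10 counts everywhere. The fit was tested on counts simulated with the spread of each gene in these data. Each gene was drawn independently, without the deviations that libraries here share across genes. The numbers below therefore do not show how many false calls the fit makes on these data. Of 200 genes changed 1.5-fold between A and Nc, 42 were called in the right direction, with 3 other genes called. Of 200 changed 2-fold, 154 were called in the right direction, with 5 others. A missing call therefore does not show that a gene was unchanged. No replicate pair was a duplicate: within groups 2654 to 7741 genes differed beyond sampling noise. Other steps used Python 3.11.15.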

Additional observations from a re-analysis of the deposited data

Results flagged for a closer look

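The 2 treated groups differed from each other, by the test of B minus A in the fit of all 9 libraries (edgeR adjusted p below 0.05), in 2 of 8 tested members. They also differed in 18 of the 109 listed genes, some of which were not tested. Over all genes tested 18% differed, so these counts are close to what genes in general showed. NFKBIA was higher in B, at a log2 fold change of 0.53, and CSF2 lower, at -1.71. Among the inhibitors and feedback genes, TNFAIP2 (1.32), BIRC3 (0.68), BCL3 (0.44) and NFKBIZ (0.42) were higher in B. Of the subunits, kinases, adaptors and receptors of the pathway, RELB (-0.48), IKBKG (-0.68), IRAK1 (-0.52), TRAF2 (-0.4) and LTBR (-0.56) were lower in B. The receptor chain IL20RB (1.21) was higher in B. In the prostaglandin list, HPGD (1.1), PTGIS (1.06), PTGES (0.93) and PTGR1 (0.52) were higher and PTGS1 (-1.34) lower. Of the regulators of AU-rich messages, TIA1 (0.72) was higher and ZFP36 (-0.76) and ZFP36L1 (-0.57) lower. CSF2, IL20RB, TNFAIP2, PTGS1 and ZFP36 were called in each of 19 alternatives. Leaving out the 5 libraries with HBB, which keeps 1 library of A, ended the calls of HPGD, LTBR, PTGES, PTGR1, ZFP36L1 and NFKBIA. Leaving out any 1 library did not end these calls. IKBKG was at -1.15 without the 5 libraries. The remaining calls ended when 1 of certain libraries was left out. Those libraries were A2 or B2 for BIRC3 and TIA1 (adjusted p up to 0.0919) and A3, B2 or B3 for IKBKG (up to 0.214). For PTGIS they were A2, A3 or B1 (up to 0.0805), and for IRAK1 and RELB Nc3, A2, A3, B2 or B3 (up to 0.192). For BCL3 they were Nc3, A1, A3, B1 or B3 (up to 0.138). For NFKBIZ they were Nc3, A1, A2, A3, B2 or B3 (up to 0.148) and for TRAF2 any but Nc1 and A1 (up to 0.162). Genes outside the rule for named genes are listed here because of these values.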

How the results depend on the processing

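CSF2 kept its calls in all 20 alternatives in A against Nc and all 19 in B against A. Calls over all genes in the average of B and A against Nc numbered 691, and 55 with library totals, 1480 with no filter, 1248 with DESeq2, 3 without Nc1 and Nc2, 13 without Nc1, Nc2, A1, A2 and B3, and 7 to 1253 with 1 library left out. For A against Nc they numbered 376, and 992 with no filter, 794 with DESeq2, 244 with the replicate block, 272 with A and Nc fitted alone, 4601 with that block over A and Nc alone (2179 higher and 2422 lower, against 244 and 132), 37 without Nc1 and Nc2, 30 without the 5 libraries and 101 to 910 with 1 left out. For B against Nc they numbered 1850, and 75, 57 and 489 to 2088 under the last 3 settings; for B against A 2498, and 460 without the 5 libraries and 1160 to 3197 with 1 left out. With library totals, 36 were higher and 19 lower for the average (192 and 499 with TMM), 750 and 492 for B against Nc (847 and 1003), and 1346 and 799 for B against A (1217 and 1281).

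Members called in the average numbered 1, and 0 with library totals, limma-voom, the replicate block, without Nc1 and Nc2 or without the 5 libraries, 2 with no filter or DESeq2, and 0 to 2 with 1 library left out. In A against Nc they numbered 2, and 1 with the replicate block, with the libraries of the groups compared alone, without Nc1 and Nc2 or without the 5 libraries, 3 with DESeq2, 4 with the replicate block over A and Nc alone, and 1 to 2 with 1 left out; in B against A 2, and 1 without the 5 libraries and 2 to 3 with 1 left out. The cause was not tested. The block over all 9 libraries also ties B by number, for which same-numbered libraries did not deviate together.

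Signs turned for differences that were near 0 or, for IL6 and IL24, had wide intervals, none of them called. ICAM1 in the average was at -0.021 with no filter, -0.059 without Nc1 and Nc2, -0.106 without the 5 libraries, and -0.017 to 0.062 with 1 library left out; in A against Nc at -0.137 to 0.005 with 1 left out, and in B against Nc at -0.013 without the 5. TNFAIP3 in B against A was at 0.007 with RLE scaling and with DESeq2, 0.08 with library totals, 0.001 with no filter, 0.01 without Nc1 and Nc2, 0.162 without the 5, and -0.096 to 0.109 with 1 left out. With 1 left out, IL24 was at -0.679 to 0.11 in the average, -1.574 to 0.004 in A against Nc and -0.176 to 0.508 in B against Nc, IL6 at -0.607 to 0.065 in A against Nc, -0.432 to 0.028 in B against Nc and -0.285 to 0.387 in B against A, and PTGS2 at -0.063 to 0.188 in B against Nc. Depth limits IL6, IL24 and TNF, at 1 to 19 counts per library.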
